A study of Mus musculus with 7 samples.

Results

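Natural killer (NK) receptors and cytotoxic effectors were examined in splenic B cell isolates of Eu-miR-155 transgenic mice (TG, 3 arrays) and of wild-type mice (WT, 4 arrays), all of the FVB strain. The 10 genes were chosen with earlier results of these data known: the receptors Klrd1, Klrk1, Klrb1c, Klrc1 and Ncr1, and the effectors Nkg7, Gzma, Gzmb, Prf1 and Ccl5. They are represented by every probe set whose platform annotation names 1 of them and no other gene, which gave 11 of the 45037 probe sets that are not controls, for 9 of the 10 genes. Klrb1c had no such probe set, since the 1 that names it names another gene too, and no value is given for it. Each array holds RNA of B cells separated from spleen with a magnetic isolation kit. The labels say neither whether the kit kept or removed the labelled cells nor the age or sex of the mice, and the design text counts mice, so each array is taken as 1 mouse. Eu in the transgene's name stands, by common usage, for the intronic enhancer of the antibody heavy chain gene, active in B lineage cells; the labels name no transgenic line and no cell type of expression.

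NK cells are lymphocytes that kill infected or altered cells without an antigen receptor of their own. They read their targets through activating and inhibitory receptors, many of them C-type lectin-like proteins encoded side by side in the NK gene complex, and kill by releasing granules that hold perforin and granzymes. Perforin opens the target membrane, granzymes are serine proteases that start cell death, and the chemokine encoded by Ccl5 recruits further leukocytes. Activated CD8+ T cells and some unconventional T cells use much of the same machinery, while mature B cells are not known for it.

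The agent that the transgene carries is miR-155. The labels do not name its arm; the sequence of the 5p arm in RefSeq (GRCm38.p6, chr16:84714143-84714165, plus strand) is shown because it defines the mice, with its seed, bases 2 to 8, in capitals.
mmu-miR-155-5p: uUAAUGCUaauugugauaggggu

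RefSeq promoter sequences (GRCm38.p6, a C57BL/6J assembly, whereas these mice are FVB) matched 8 of the 10 genes, without Klrd1 and Ccl5. Each covers 250 bases before to 50 bases after a transcription start, and 4 are shown. They are those of Klrk1, Nkg7 and Gzma, which were above background on all 3 transgenic arrays, and Gzmb, above background on 1 of them. Capitals mark every match, on either strand, to a RUNX site (TGTGGT), an ETS site (AGGAAG), a T-box site (GGTGTGA) or a TATA box (TATAAA). RUNX3, ETS1 and the T-box factors T-bet and EOMES are known regulators of NK and cytotoxic T cell genes.
Klrk1 promoter, chr6:129623815-129624114, minus strand: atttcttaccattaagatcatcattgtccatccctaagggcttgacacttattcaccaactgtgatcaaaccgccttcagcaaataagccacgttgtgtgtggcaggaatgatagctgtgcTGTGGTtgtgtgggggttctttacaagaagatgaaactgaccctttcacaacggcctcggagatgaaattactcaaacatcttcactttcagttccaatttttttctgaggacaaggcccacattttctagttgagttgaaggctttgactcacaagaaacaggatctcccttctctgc
Nkg7 promoter, chr7:43436888-43437187, plus strand: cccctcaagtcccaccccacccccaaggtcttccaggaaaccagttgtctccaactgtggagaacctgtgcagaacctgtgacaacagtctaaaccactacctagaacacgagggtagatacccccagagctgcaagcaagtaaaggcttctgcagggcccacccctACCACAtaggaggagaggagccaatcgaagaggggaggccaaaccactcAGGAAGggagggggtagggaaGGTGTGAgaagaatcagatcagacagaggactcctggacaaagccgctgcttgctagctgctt
Gzma promoter, chr13:113100932-113101231, minus strand: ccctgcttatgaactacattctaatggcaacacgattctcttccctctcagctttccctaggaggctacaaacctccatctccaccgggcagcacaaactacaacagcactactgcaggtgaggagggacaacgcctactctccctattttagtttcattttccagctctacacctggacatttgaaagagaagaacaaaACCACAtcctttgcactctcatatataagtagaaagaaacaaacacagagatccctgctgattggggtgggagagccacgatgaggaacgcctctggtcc
Gzmb promoter, chr14:56262285-56262584, minus strand: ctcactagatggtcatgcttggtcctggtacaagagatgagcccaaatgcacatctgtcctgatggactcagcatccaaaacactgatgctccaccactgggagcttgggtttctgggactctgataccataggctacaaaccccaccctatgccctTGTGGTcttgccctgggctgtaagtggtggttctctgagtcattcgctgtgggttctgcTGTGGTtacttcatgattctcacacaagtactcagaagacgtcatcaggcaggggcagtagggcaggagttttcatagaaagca

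The RUNX letters stood in the window of 8 of the 8 genes with a promoter, against 16.8% of all 32851 promoters of that length. Klrk1, Nkg7 and Gzma had 1 match each and Gzmb had 2, the nearer at -34 to -29 from its start. The T-box letters stood in 1 of the 8, Nkg7, at -13 to -7 (3.98% of all promoters). The ETS letters stood in 3 of the 8 (Klrb1c, Nkg7 and Prf1; 35.4% of all) and the TATA letters in 1, Klrc1 (13.6% of all). These motifs were searched because they are known in cytotoxic genes, and a match of letters is a description of the sequence, not a binding site. No overlap between different motifs occurred in the 4 windows shown.

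Values below are log2 expression levels as the authors computed them with GCRMA. None is under 2.17, where dim probe sets pile up, and a probe set at or under 4 is treated as not above background; from 45.9% to 47.9% of probe sets exceeded 4 on an array. B cell markers were detected on all arrays, with a mean over 9 genes of 13.20, 13.18 and 12.67 on TG replicates 1, 2 and 3 and of 13.31 to 13.39 on WT arrays, so every TG mean lay below every WT mean. By their brightest probe sets all 9 genes had a negative difference (-0.54 to -0.10, median -0.32) and 0 passed; dimmer probe sets of Cd22 (-0.41, limma adjusted p = 0.0484) and Pax5 (-1.03, adjusted p = 0.0469) passed as lower. Libraries stood apart in ways that touch the results below. TG replicate 3 had all 12 measured T cell markers above 4, against 4 of 12 on the other TG arrays and 3 of 12 on the WT arrays. WT replicates 3 and 4 had Xist, the RNA of the inactive X chromosome, at 2.22 and 2.81, against 13.73 to 13.93 on the TG arrays and 13.79 and 13.61 on WT replicates 1 and 2. With 3 and 4 arrays a group, the array number sets the precision.

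Klrd1, Klrk1, Nkg7, Gzma and Ccl5 were higher in transgenic isolates, the first 4 from a background level in wild type, while Prf1 did not pass and Ncr1, Klrc1 and Gzmb were too dim to be tested. Of the 9 genes measured, 6 were above 4 on at least 3 arrays and were tested, and 5 of these passed the limma test (adjusted p under 0.05 over all 20994 probe sets tested), all higher in TG. Of all 9517 genes tested by their brightest probe set, 8.11% passed as higher. Klrd1, Klrk1, Nkg7 and Gzma entered the test through their TG arrays alone, so their count is not set against that share; Ccl5 and Prf1 were above 4 on all 7 arrays. In isolates, more cells of a type and more RNA per cell cannot be told apart.

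**Figure D1:**
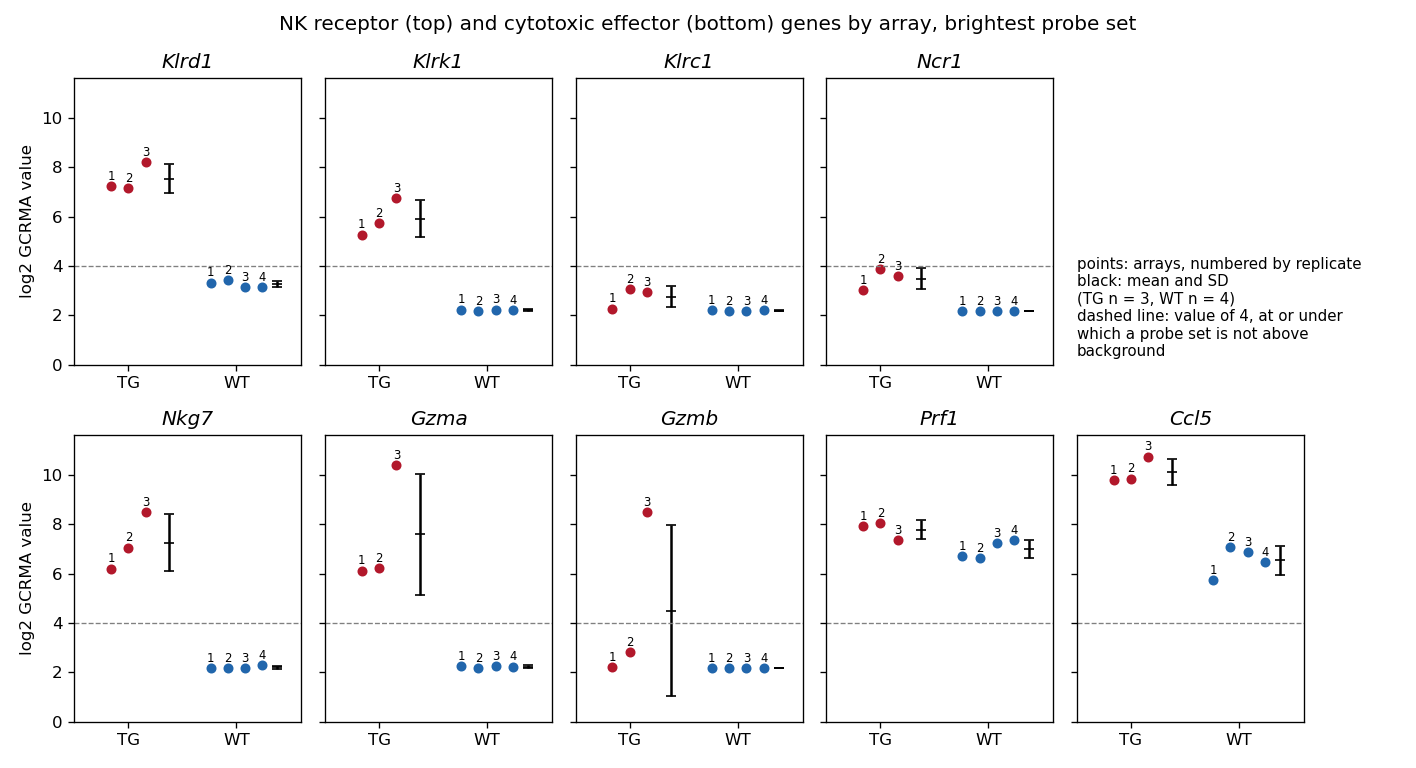
Log2 GCRMA value (vertical axis) of the 9 measured genes on each TG array (red, left) and WT array (blue, right), with the mean and SD in black and a dashed line at 4. Klrd1, Klrk1, Nkg7 and Gzma lie above the line on all 3 TG arrays and below it on all 4 WT arrays, Ccl5 lies above it on all 7, Gzmb is above it on TG replicate 3 alone, and Prf1 overlaps between the groups.

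Klrd1 encodes CD94, a lectin-like chain that pairs with NKG2 proteins to form receptors for the nonclassical MHC molecule Qa-1. Its probe set was at 7.24, 7.14 and 8.20 on TG replicates 1, 2 and 3 and at 3.32, 3.44, 3.15 and 3.15 on WT replicates 1 to 4. All TG arrays were above background, none of the WT arrays was, and the groups did not overlap. Klrd1 averaged 7.53 ± 0.58 in TG (SD, n = 3) and 3.26 ± 0.14 in WT (SD, n = 4), a fitted difference of 4.26 ± 0.26 (SE, limma adjusted p = 0.00168), the smallest adjusted p among these genes. Against the background level of 4, its TG mean was at least 11.5-fold higher. Where WT values are bounded by the background the fitted difference is not exact and the WT spread is compressed, which also holds for Klrk1, Nkg7 and Gzma.

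Klrk1 encodes NKG2D, an activating receptor for stress-induced ligands. It stood at 5.27, 5.73 and 6.75 on the TG arrays and at 2.23, 2.17, 2.23 and 2.22 on the WT arrays. The WT values lay at or just over the lowest value in the table, and every TG array was above background. The TG mean was 5.92 ± 0.76 (SD, n = 3) and the WT mean 2.21 ± 0.03 (SD, n = 4), a difference of 3.71 ± 0.32 (SE, limma adjusted p = 0.00543), or at least 3.78-fold higher in TG. With values under 4 set at 4 the log2 difference was 1.92 (adjusted p = 0.0247).

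The other receptors were not above background on any array. Ncr1, which encodes NKp46, a receptor used to define NK cells and some innate lymphoid cells, was at 3.01, 3.86 and 3.58 in TG and at 2.17 on all 4 WT arrays. Every TG value lay above every WT value and under 4. Klrc1 encodes NKG2A, the inhibitory partner of CD94. Its brighter probe set was at 2.27, 3.05 and 2.94 in TG and at 2.20, 2.17, 2.17 and 2.20 in WT, and its dimmer one reached 2.61 on TG replicate 3 and was between 2.17 and 2.18 on the other arrays. With no filter on low values, neither gene passed (limma adjusted p = 0.0671 for Ncr1 and 0.274 for the brighter Klrc1 probe set, where 0.638% of 18193 genes passed in either direction). No fold is given for either gene, since both groups were below background.

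Nkg7 encodes a membrane protein of cytotoxic granules that takes part in their release. It was at 6.20, 7.05 and 8.48 on the TG arrays and at 2.17, 2.17, 2.17 and 2.30 on the WT arrays. All TG values were above background and apart from WT, and replicate 3 was the highest. Nkg7 averaged 7.24 ± 1.15 in TG (SD, n = 3) and 2.20 ± 0.06 in WT (SD, n = 4), a difference of 5.04 ± 0.49 (SE, limma adjusted p = 0.00662). It was at least 9.48-fold higher in TG, and at least 6.17-fold without TG replicate 3. With values under 4 set at 4 the log2 difference was 3.24.

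The granzyme genes differed among the TG arrays. Gzma encodes granzyme A, a protease that cuts after basic residues, and was at 6.12, 6.23 and 10.40 in TG and at 2.26, 2.17, 2.26 and 2.23 in WT. All TG arrays were above background, and TG replicate 3 was 4.22 above the mean of the other TG arrays on the log2 scale. The difference was 5.35 ± 1.02 (SE, limma adjusted p = 0.0300), from a TG mean of 7.58 ± 2.44 (SD, n = 3) and a WT mean of 2.23 ± 0.04 (SD, n = 4), and the TG mean was at least 12.0-fold higher. Without TG replicate 3 the bound was 4.52-fold and the log2 difference 3.95 ± 0.06 (SE, limma adjusted p = 2.24e-05). That SE rests on TG values of 6.12 and 6.23 and on WT values bounded by the background, so it is likely too small. Without TG replicate 1 or 2 the bounds were 19.9-fold and 19.1-fold. The call was lost without TG replicate 2 (adjusted p = 0.0789) and without any 1 of the WT arrays (0.0739 to 0.0865).

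Gzmb encodes granzyme B, which cuts after aspartate and activates caspases. It was at 2.21, 2.80 and 8.49 on the TG arrays and at 2.17 on all 4 WT arrays. TG replicate 3 alone was above background, and the other TG arrays were within 0.63 of the WT level. It was not tested for that reason, and with no filter it did not pass (limma adjusted p = 0.687). On the same TG replicate 3, Cd3d and Cd3e, which encode chains of the T cell receptor complex, were at 10.70 and 6.13, and Thy1, a surface antigen of mouse T cells, at 10.78. On TG replicates 1 and 2 Cd3d was at 2.25 and 2.19 and both Cd3e and Thy1 at 2.17, the level on the WT arrays. Cd3g, another chain of that complex, was at 4.02 and 4.55 there and at 9.86 on TG replicate 3, against 2.17 on all 4 WT arrays. The part of these cells in the Gzma and Gzmb values of TG replicate 3 was not tested.

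**Figure D2:**
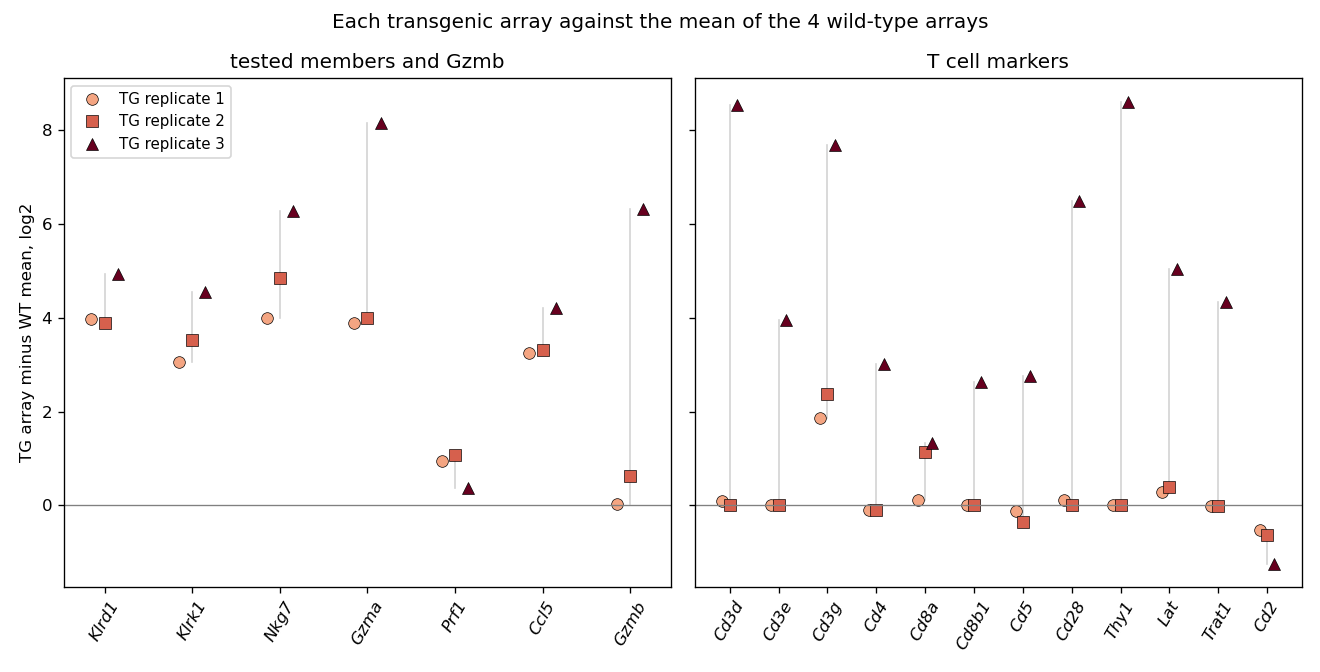
Log2 difference of each TG array from the WT mean (vertical axis) for the 6 tested members and Gzmb (left) and for 12 T cell markers (right), with a symbol for each TG replicate. Klrd1, Klrk1, Nkg7, Gzma and Ccl5 are above 0 on all 3 arrays, whereas Gzmb and T cell markers such as Cd3d, Cd3e and Thy1 are near 0 on TG replicates 1 and 2 and far above it on replicate 3.

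Prf1 encodes perforin, the pore-forming protein that lets granzymes in. Its brighter probe set was at 7.93, 8.06 and 7.36 in TG and at 6.70, 6.64, 7.23 and 7.36 in WT. It was above background on all arrays, the groups overlapped, and TG replicate 3, the highest for Gzma, Gzmb and Nkg7, was the lowest TG array here. The difference was 0.80 ± 0.25 (SE, limma adjusted p = 0.0929), from 7.78 ± 0.38 in TG (SD, n = 3) and 6.98 ± 0.36 in WT (SD, n = 4), and did not pass. A second Prf1 probe set stood at 2.17 on all 7 arrays, the table's minimum, so the probe sets of this gene disagree on whether it was expressed. With array weights, Prf1 passed (1.08 ± 0.19 SE, limma adjusted p = 0.00919).

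Ccl5, which many activated lymphocytes and myeloid cells also make, was the 1 member above background in both groups that passed. It was at 9.79, 9.85 and 10.74 on the TG arrays and at 5.73, 7.07, 6.87 and 6.48 on the WT arrays. The groups did not overlap, with the lowest TG array well above the highest WT array. The mean was 10.13 ± 0.53 in TG (SD, n = 3) and 6.54 ± 0.59 in WT (SD, n = 4), a log2 difference of 3.59 ± 0.38 (SE, limma adjusted p = 0.00814). Of all tested genes, 19.5% had every TG array above every WT array.

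The members were also read without the arrays that stand apart. On TG replicates 1 and 2, where T cell markers other than Cd3g and Cd8a were near or below the WT level, the mean difference from WT was 3.93 for Klrd1, 3.29 for Klrk1, 4.42 for Nkg7, 3.95 for Gzma, 3.28 for Ccl5 and 1.01 for Prf1. The first 5 of these passed without TG replicate 3 (limma adjusted p from 2.24e-05 for Gzma to 0.0125 for Ccl5). The Gzma value rests on the small SE given above. Prf1 did not pass without that array (adjusted p = 0.0639). Among the arrays with a high Xist level, TG replicates 1 to 3 against WT replicates 1 and 2, the differences were 4.15 for Klrd1, 3.72 for Klrk1, 5.08 for Nkg7, 5.37 for Gzma and 3.73 for Ccl5, none of which passed (adjusted p from 0.0927 to 0.183), and 15 probe sets in all did. With the Xist level as a covariate 4 of the 5 passed and Gzma did not (adjusted p = 0.104).

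**Figure D3:**
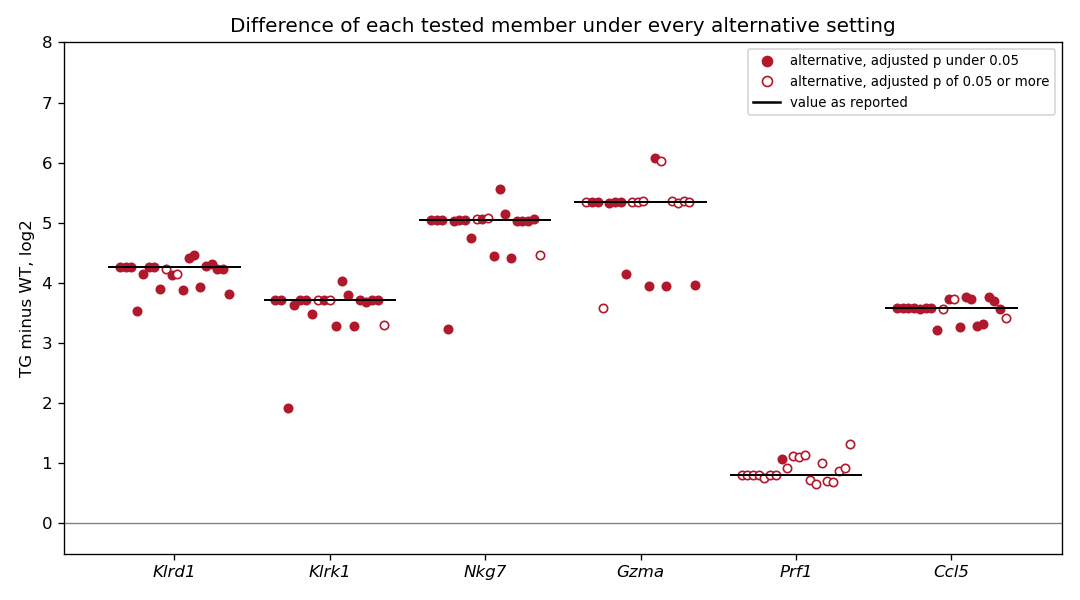
Log2 difference, TG minus WT (vertical axis), of the 6 tested members under each alternative setting, filled where the limma adjusted p was under 0.05 and open otherwise, with a black line at the reported value. Every point is above 0; Klrd1 ranges from 3.53 to 4.46 and Prf1 from 0.66 to 1.32.

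Further NK receptors and their adaptors were mostly undetected. Of 33 listed genes 24 had a probe set that names only them, 14 of these were at or under 4 on every array, and 7 were tested. The median difference of the 7 was 1.25, against 0.00 over all tested genes. Of the 7, 3 passed as higher and 0 as lower, where 8.11% and 2.56% of all tested genes did (10.7% in either direction). The 3 were the signalling chain genes Fcer1g and Tyrobp and the Fc receptor gene Fcgr3, all of which myeloid cells express too. Fcer1g was at 7.90, 8.53 and 9.41 in TG and averaged 5.39 ± 0.45 in WT (SD, n = 4), a difference of 3.22 ± 0.40 (SE, limma adjusted p = 0.0124). Fcgr3 and Tyrobp were higher by 2.95 and 1.25 (adjusted p = 0.0178 and 0.0337), and Fcgr3 was above 4 on 1 WT array. Cd244a, which encodes the receptor 2B4, was 1.98 higher and did not pass (adjusted p = 0.0999). Hcst went the other way, at 7.23, 7.10 and 6.57 in TG and 7.40 to 7.43 in WT. It did not pass (-0.46, limma adjusted p = 0.113), nor did Sh2d2a (-0.13, adjusted p = 0.482) and Slamf7 (0.51, adjusted p = 0.322). Klre1, Klra1 and Klrc2 were between 2.17 and 2.18 on all arrays. Cd247, Sh2d1a and Cd96 were above 4 on TG replicate 3 alone, at 8.54, 8.44 and 6.99.

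Most other genes of the killing machinery were undetected or did not pass. Of 19 further granule and death ligand genes, 10 were tested, with a median difference of 0.37. Of the 10, 2 passed as higher and 0 as lower, where 8.11% and 2.56% of all tested genes did. Serpinb6b, a protease inhibitor of the serpin family, was higher by 1.88 ± 0.33 (SE, limma adjusted p = 0.0257), and Rab27a, a GTPase of granule release, by 1.14 ± 0.23 (adjusted p = 0.0344). Serpinb9, an inhibitor of granzyme B, was 1.09 higher and did not pass (adjusted p = 0.118), nor did Srgn, the granule proteoglycan serglycin (0.13, adjusted p = 0.0855). The granzyme genes Gzmc, Gzmd, Gzme, Gzmf, Gzmg, Gzmk and Gzmm were at 2.17 on all 7 arrays. Of 6 cytokine and chemokine genes, Tnf was tested and did not pass (0.01, limma adjusted p = 0.990), and Ifng did not exceed 2.90 on any array. Ccl3 and Ccl4 were above 4 on TG replicate 3 alone, at 6.95 and 4.40, and at 2.17 on all WT arrays.

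Transcription factors and cytokine receptors of NK cells were also mixed. Of 10 factors with a probe set 5 were tested, and 1 passed as higher, where 8.11% of all tested genes did. It was Id2, an inhibitor of E proteins needed for NK cell development (2.23 ± 0.29 SE, limma adjusted p = 0.0144). Ets1 (-0.57, adjusted p = 0.0578), Prdm1 (0.95, 0.227) and Tbx21, the gene of T-bet (0.47, 0.439), did not pass. Eomes did not exceed 3.16 on any array. On TG replicate 3, 9 of the 10 factors were above 4, against 5 and 6 on TG replicates 1 and 2 and 5 on each WT array. Gata3, Ikzf2 and Tox were at 8.34, 8.56 and 6.35 on TG replicate 3 and at 2.17 to 2.40 on the other arrays. Of 12 cytokine and homing receptor genes, Il15ra was tested and did not pass (0.60, limma adjusted p = 0.359). On TG replicate 3, 4 of the 12 were above 4, with Cd27 at 7.89 and Il12rb1 at 5.44, against 1 on every other array. Il2rb, the shared receptor chain for IL-2 and IL-15, was at 3.87, 3.85 and 6.46 in TG and at 2.45, 2.17, 2.18 and 2.45 in WT, above background on TG replicate 3 alone. Of 7 NK cell markers with a probe set (Klrd1, Klrk1, Klrc1, Ncr1, Klre1, Il2rb and Eomes), 2, 2 and 3 were above 4 on TG replicates 1, 2 and 3 and 0 on every WT array. Those above 4 were Klrd1 and Klrk1, which are members, with Il2rb beside them on TG replicate 3, so this count adds little to the member values, and the defining markers Ncr1 and Eomes were not above background on any array.

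Markers of other cells moved on the same arrays, and their part in the differences of the members was not tested. The mean of 9 granulocyte markers was 7.96 to 9.35 on TG arrays and 2.77 to 3.69 on WT arrays. All 6 that were tested passed as higher, and 8.11% of all tested genes did. S100a8, S100a9 and Ctsg entered the test through their TG arrays alone, and Mpo and Prtn3 were each above 4 on 1 WT array. The count of 6 is therefore not set against that share. S100a8 had the smallest adjusted p of the 6 (0.000194, limma), with WT values below background. Dendritic cell markers averaged 5.08 to 7.69 on TG arrays and 3.85 to 4.14 on WT arrays. Of 4 tested, 3 passed as higher (Flt3, Xcr1 and Itgax), and Xcr1 was tested through its TG arrays alone. Monocyte and macrophage markers averaged 6.56 to 7.83 on TG arrays and 4.45 to 6.53 on WT arrays, with 1 of 4 passing as higher (Cd68), against the same 8.11%. The highest WT mean, on replicate 4, was barely below the lowest TG mean. That array had Lyz2 at 11.45, within the TG range of 10.85 to 11.59, and Mpo at 6.95, against 2.85 to 3.23 on the other WT arrays. Of 4 T cell markers tested by their brightest probe sets 0 passed as higher and 1, Cd2, as lower (-0.81, adjusted p = 0.0466, where 2.56% of all tested genes passed as lower); mouse B cells express Cd2 as well. A dimmer probe set of Cd8a, which encodes a coreceptor chain of cytotoxic T cells that some dendritic cells also carry, was at 5.69, 6.82 and 6.94 in TG and at 4.01, 3.52, 3.88 and 4.12 in WT and passed as higher (2.60 ± 0.32 SE, limma adjusted p = 0.0124). By this probe set all 3 TG arrays were above the WT arrays, not replicate 3 alone. The brightest Cd8a probe set was at 5.82, 6.86 and 7.04 in TG and at 5.64 to 5.75 in WT. It did not pass (0.86, limma adjusted p = 0.104). Another overlapped between the groups (0.94, limma adjusted p = 0.0752), and the rest were at 2.17 on all 7 arrays. The 5 basophil and mast cell markers with a probe set were not above 4 on any array, with a mean of 2.17 to 2.37 on TG arrays and 2.17 on WT arrays.

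**Figure D4:**
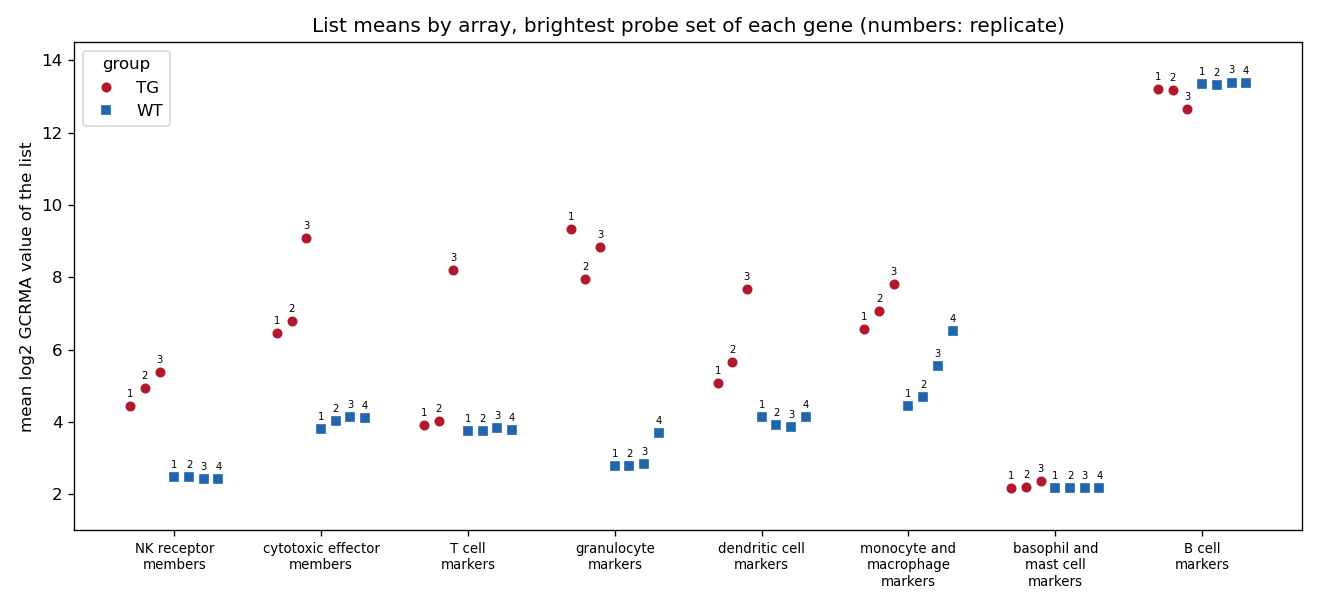
Mean log2 GCRMA value of each gene list (vertical axis) on the TG arrays (red circles) and WT arrays (blue squares), numbered by replicate. The receptor and effector means are higher on every TG array than on any WT array, as are the granulocyte and dendritic means. The lowest monocyte mean on a TG array (6.56, replicate 1) is barely above the highest on a WT array (6.53, replicate 4). The T cell mean stands at 8.21 on TG replicate 3. It is 3.92 and 4.02 on the other TG arrays and 3.75 to 3.83 on the WT arrays.

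Position on the chromosome was not used to choose the genes. By the order of protein-coding genes in RefSeq, Klrb1c, Klrd1, Klrk1 and Klrc1 lie within a stretch of 26 genes on chromosome 6, in which Klrd1 and Klrk1 are direct neighbours. Of these 26, 22 had a probe set naming only them and 9 were tested. The 3 that passed as higher were Klrd1 and Klrk1, which are members and were tested through their TG arrays alone, and Gabarapl1. Of all tested genes 8.11% passed as higher, but with members among the 3 this count is not set against that share. Gabarapl1, the gene next but 1 before Klrd1, encodes an autophagy protein (2.15, limma adjusted p = 0.00689). The other 6, among them Cd69 (0.10, adjusted p = 0.809) and Clec1b (2.11, adjusted p = 0.0840), did not pass, and the Klrc2 and Klrc3 genes between Klrk1 and Klrc1 were at 2.17 on every array.

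Among 9511 other tested genes, those with profiles most like the members' were found by the root mean square distance, over the 7 arrays, between a gene's centred log2 values and the mean centred profile of the 6 tested members. The 6 nearest were Hacd1 (0.219), E2f8 (0.255), Lgals1 (0.282), Tspoap1 (0.291), Olfm1 (0.295) and Tfec (0.296). All but Lgals1 were at or under 4 on every WT array and entered the test through their TG arrays alone. The same holds for Klrd1, Klrk1, Nkg7 and Gzma among the members. By the same distance Klrk1 lay nearest to the members' own mean (0.121) and Prf1 farthest (1.63). Hacd1 encodes a dehydratase of fatty acid elongation, and was at 6.46, 7.01 and 8.26 in TG and at 2.97, 3.05, 3.02 and 3.36 in WT. Lgals1 encodes galectin-1, and was at 10.59, 11.28 and 12.28 in TG and at 6.92, 7.45, 7.61 and 8.07 in WT. Both genes were highest on TG replicate 3, as Klrk1 and Klrd1 were. This follows from the ranking, since the members' mean centred profile was 3.12 there, against 1.56 and 1.81 on TG replicates 1 and 2.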

How the data were processed

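Total RNA of splenic B cell isolates from 3 TG and 4 WT mice was hybridised as biotin-labelled cRNA, 1 array per sample. Per the submitters' processing notes, the authors used GCRMA (no version is stated), and the deposited values are log2 levels. This method subtracts a background predicted from probe sequence, normalizes between arrays and summarises probes per probe set, so dim genes share a lowest value and their differences are compressed. Scanner files and dates were not used here, so no batch was tested.

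Groups and replicate numbers come from the sample titles. Whether replicates were separate mice rests on the design text. Probe sets were named from the platform annotation, only where it gives 1 gene, and the brightest probe set (highest mean of the 7 arrays) stood for its gene. Probe sets above 4 on at least 3 of 7 arrays were tested with limma 3.58.1 in R 4.3.3 (lmFit, eBayes with an intensity trend, two-sided), with Benjamini-Hochberg adjustment over all of them at 0.05. A gene at or under 4 on every WT array is given a minimum fold, the TG mean against 4. The procedure was tested on simulated data. The members, gene lists and alternatives were chosen with earlier results of these data known. Named genes are all members, up to 4 per context list and 3 per list of other cells by smallest p, others being named as examples after their values were seen, and the 6 nearest profiles.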

Additional observations from a re-analysis of the deposited data

Results flagged for a closer look

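In WT, the Klrk1 value of replicate 2 was 2.17, where the other WT arrays were between 2.22 and 2.23, and the Nkg7 value of replicate 4 was 2.30, where the others were at 2.17. Each stood apart from the other WT arrays by Dixon's test for a group of 4, with values rounded to 2 decimals. The test flags about 1 in 20 groups by chance where values are unbounded, which does not hold here: both values lie under the background level of 4, and with 3 arrays tied at 2.17 any other Nkg7 value on the remaining array would have stood apart.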

How the results depend on the processing

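The sign of the difference was positive for all 6 tested members under every alternative. Klrd1 passed in 18 of 20 alternatives (log2 difference 3.53 to 4.46, limma adjusted p 6.7e-05 to 0.115), Nkg7 in 17 of 20 (3.24 to 5.56), Ccl5 in 17 of 20 (3.22 to 3.76), Klrk1 in 16 of 19 (1.92 to 4.03), Gzma in 10 of 20 (3.58 to 6.08, adjusted p 2.24e-05 to 0.183) and Prf1 in 1 of 20 (0.66 to 1.32). As reported, the test called 1949 probe sets and 5 members. With no filter on low values 199 probe sets passed, with array weights 5945, with the Xist level as a covariate 277, with TG replicate 3 and WT replicate 4 left out 687, and 138 to 2149 with 1 replicate left out, where 4 to 5 members passed. The low counts came without TG replicate 2 (138) and without WT replicate 1, 2, 3 or 4 (671, 205, 549 and 500). With WT replicates 3 and 4 left out, 15 probe sets and 0 members passed, and with TG replicate 3 left out as well, chosen after the data were seen, 59 and 2. With a block for the replicate number, WT replicate 4 had to be dropped. There 4 probe sets and 0 members passed (limma adjusted p = 0.115 for Klrd1), with fewer residual degrees of freedom. Deviations of same-numbered TG and WT arrays from their group means correlated at -0.04, -0.14 and -0.29 across probe sets. Those of differently numbered arrays correlated at -0.17 to 0.26. Deviations within a group sum to 0, so these correlations depend on each other and cannot decide whether the shared numbers pair the arrays. The cause of the changes in these counts was not tested. Klrk1 could not be tested with values above 6 required on 3 arrays. No member had more than 1 tested probe set, so the dimmer tested probe set was not run as an alternative. Signal over background limits Klrc1 and Ncr1 on all arrays, Gzmb on all arrays but TG replicate 3, and Klrd1, Klrk1, Nkg7 and Gzma on the WT arrays.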
